A study of Mus musculus with 24 samples.

Results

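The clustered histone genes of the mouse were described here across all samples of the series. They were taken by symbol: every gene whose name begins with Hist1h, Hist2h, Hist3h or Hist4h, which gave 64 of the 21671 genes in the table. By class there were 6 H1, 15 H2A, 19 H2B, 11 H3 and 13 H4 genes. By location, 52 belonged to cluster 1 on chromosome 13, 8 to cluster 2 on chromosome 3, 3 to cluster 3 on chromosome 11, and 1 (Hist4h4) stood alone on chromosome 6.

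Most clustered histone genes are replication-dependent. They supply H2A, H2B, H3 and H4 for the nucleosome core, and H1 for the linker, when DNA is copied in S phase. Their mRNAs have no introns as a rule and no poly(A) tail: they end after a short RNA hairpin, the stem-loop, which is bound by the stem-loop binding protein Slbp and governs processing, translation and decay of the message. In a spleen, dividing lymphocytes and erythroid precursors are the cells known to carry these transcripts, whereas resting lymphocytes are outside the cell cycle.

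RNA was sequenced from spleens of C57/Bl6 mice, 8 weeks old, that were wild type (Trp53+/+) or lacked p53 (Trp53-/-), the transcription factor activated by DNA damage. Mice were either left without irradiation (mock) or collected 4 h after 7 Gy of whole-body ionizing radiation (IR). Each spleen was split with magnetic beads against B220 into a B cell fraction and the flow-through, called non-B cells, which holds the cells that did not bind, with residual erythroid cells after red cell lysis. Each of the 8 groups of cell type, genotype and treatment held 4 Trp53+/+ or 2 Trp53-/- samples, 24 in all. In bulk RNA, fewer cells of a kind and less RNA per cell cannot be told apart.

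Levels were given as RPKM, reads per kilobase of gene, with the reads on exons as the library size. Behind them lay 4.81 to 11.1 M reads per sample, recovered from the steps between low values. In Trp53+/+ B cells these were 7.63 to 10.3 M in mock and 4.81 to 7.76 M after IR, and in Trp53+/+ non-B cells 8.55 to 11.1 M and 7.10 to 10.3 M. Trp53 itself was listed at 21.6 to 25.04 RPKM in the mock Trp53-/- samples and at 43.4 to 49.5 RPKM in the mock Trp53+/+ samples. After IR in non-B cells the Trp53 levels of the genotypes lay close together, at 34.6 and 36.4 RPKM in Trp53-/- and 35.0 to 38.6 RPKM in Trp53+/+, so Trp53 RPKM alone does not tell these apart. The p53 target Cdkn1a did: after IR it reached 69.6 to 97.8 RPKM in the 8 Trp53+/+ samples and at most 2.63 RPKM in the 4 Trp53-/- samples. Of the markers, 6 of 6 of B cells were higher in mock Trp53+/+ B cells and 6 of 6 of T cells in non-B cells. Of all genes tested, 7.38% were called higher in B cells and 17.2% higher in non-B cells. The separation was partial: summed B cell markers were at 273 to 434 RPKM in mock non-B cells against 753 to 882 RPKM in B cells, and 3 of 6 monocyte and macrophage markers were higher in the B fraction and 1 lower, with the complement gene C1qa higher by 1.16 ± 0.16 on the log2 scale. Libraries differed in a trace of signal over olfactory and vomeronasal receptor genes, which blood cells are not known to use. Of 1440 such genes, 5.42% to 9.31% were above 0 in every mock library, but 7.01% to 47.3% in irradiated Trp53+/+ B cells and 8.61% to 51.3% in irradiated Trp53+/+ non-B cells, and 6.88% and 13.1% in irradiated Trp53-/- B cells. Counts of called genes are given with and without the libraries over 10%, a setting that leaves 1 irradiated B cell sample of each genotype and 1 irradiated Trp53+/+ non-B sample.

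The hairpin that defines these transcripts was read from the mm9 genome at the end of the genes. The pattern searched is 16 bases long: the arm GGNNCT, the loop NTNN and the arm AGNNCC. It was found within 100 bases after the stop codon in 57 of the 62 genes with an annotated reading frame (91.9%), and in 20 of 22546 other coding genes (0.0887%). It took 6 distinct forms, and 1 of them was shared by 35 genes. It was not found in this window for Hist1h2an, Hist1h3g, Hist1h4a, Hist2h2bb and Hist2h2be. The sites below belong to the genes on which the comparisons turn. They are written 5′ to 3′ on the strand of the gene, with the hairpin in capitals and 5 flanking bases on each side.
Hist1h2bp, chr13:21879787-21879812, plus strand: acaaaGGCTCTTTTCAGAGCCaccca
Hist1h2ah, chr13:22126991-22127016, minus strand: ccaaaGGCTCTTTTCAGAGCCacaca
Hist1h2bk, chr13:22128164-22128189, plus strand: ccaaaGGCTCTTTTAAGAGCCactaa
Hist1h4i, chr13:22132830-22132855, minus strand: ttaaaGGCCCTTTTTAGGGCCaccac
Hist1h1a, chr13:23856256-23856281, plus strand: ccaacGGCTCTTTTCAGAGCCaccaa
Hist1h1c, chr13:23831376-23831401, plus strand: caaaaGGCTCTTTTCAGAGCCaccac
Hist3h2ba, chr11:58762846-58762871, plus strand: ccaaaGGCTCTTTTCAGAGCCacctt
Hist4h4, chr6:136752514-136752539, minus strand: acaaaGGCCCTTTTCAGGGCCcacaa
Hist1h2bp and Hist1h2ah, which moved in opposite directions in irradiated B cells, carried the same 16 bases, as did the H1 genes Hist1h1a and Hist1h1c.

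Promoters were taken from RefSeq on GRCm38.p6, from 250 bases before to 50 bases after the start, for the 58 genes that matched by symbol or synonym. Both strands were searched. The octamer ATTTGCAT, the site of the octamer-binding Oct factors, was present in 7 of 15 H2A and 7 of 16 H2B promoters, in none of the H1, H3 and H4 promoters, and in 1.97% of all 27025 genes. The sequence TTTTCGCG, a form of the E2F site, was present in 5 of 15 H2A and 5 of 16 H2B promoters and in 0.263% of all genes. Divergent H2A and H2B pairs lie 167 to 305 bases apart, so the same stretch can be counted for both genes. Hist1h2ah and Hist1h2bk are such a pair, and the H2A and H2B counts are not all of separate promoters. CCAAT was present in every H1, H2A, H2B and H3 promoter and in 3 of 12 H4 promoters, against 41.1% of all genes, and TATAAA in 34 of 58 against 15.7%. A p53 half-site was matched in 4 of 58 promoters (6.9%) against 9.55% of all genes. A match to letters is a description and no sign of binding. The promoters below are printed because they belong to the H2A gene that fell most and the H2B gene that rose most in irradiated Trp53+/+ B cells. Capitals mark the motifs named above, on either strand, other than the p53 half-site, which neither promoter held.
Hist1h2ah, chr13:22035594-22035893 (GRCm38.p6), minus strand: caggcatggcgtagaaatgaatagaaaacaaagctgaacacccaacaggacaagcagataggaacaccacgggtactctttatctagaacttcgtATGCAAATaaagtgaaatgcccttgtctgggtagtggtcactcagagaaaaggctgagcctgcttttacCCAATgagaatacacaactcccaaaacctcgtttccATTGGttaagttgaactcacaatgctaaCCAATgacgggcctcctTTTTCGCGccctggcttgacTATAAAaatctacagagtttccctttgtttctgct
Hist1h2bp, chr13:21787238-21787537 (GRCm38.p6), plus strand: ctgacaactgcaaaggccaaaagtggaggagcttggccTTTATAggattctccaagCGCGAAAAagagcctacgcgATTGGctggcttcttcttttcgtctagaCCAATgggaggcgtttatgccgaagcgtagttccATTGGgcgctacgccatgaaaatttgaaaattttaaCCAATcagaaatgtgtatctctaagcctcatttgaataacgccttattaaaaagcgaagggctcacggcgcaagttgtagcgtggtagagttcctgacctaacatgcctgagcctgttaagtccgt
Hist1h2ah carried the octamer and Hist1h2bp did not, while both carried TTTTCGCG, CCAAT and TATAAA. In Hist1h2ah TTTTCGCG and TATAAA stood on the strand of the gene, in Hist1h2bp on the opposite strand and far from the start.

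Of the 64 genes, 59 passed the filter of at least 1 Trp53+/+ sample above 1 RPKM, in B and in non-B cells alike. The other 5 were Hist1h2aa and Hist1h2ba, the testis H2A and H2B variants, and Hist1h2ao, Hist1h2bq and Hist1h2br. Hist1h2bq was listed at 0 in all samples, and Hist1h2ao, Hist1h2bq and Hist1h2br shared every 50-base window of their reading frames with another place in the genome. The testis linker histone Hist1h1t stayed between 0.297 and 2.68 RPKM. Per length, the most abundant members by the mean over 24 samples were Hist1h4d at 123 RPKM, followed by Hist2h2bb, the leading H2B gene, then by Hist1h4c at 94.8 RPKM and Hist4h4 at 85.6 RPKM. The leading genes of the other classes were Hist1h1b at 84.97 RPKM, Hist2h2ac at 84.7 RPKM and Hist1h3e at 48.9 RPKM. H4 held the largest part of the summed RPKM in each group, 32.1% to 39.0% as group means, followed by H2B.

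These levels were bounded from above. The authors kept 1 of each set of duplicate reads, and in no sample did any gene exceed 1 read per base and strand, the limit that such a step sets. Against that limit, 10 histone genes passed 50% in at least 1 sample, with Hist1h1b highest at 83.5%, so differences among the most abundant genes are compressed. In RPKM the limit falls as depth rises. It was 194 to 262 RPKM in mock and 258 to 416 RPKM in irradiated Trp53+/+ B cells, and 181 to 234 RPKM and 194 to 281 RPKM in Trp53+/+ non-B cells. Compression was thus not equal in mock and irradiated samples. Sequence sharing was the other limit. Windows of 50 bases were taken from the reading frame, or from the longest exon where no unbroken reading frame was annotated. In 46 of 64 genes more than 50% of these windows occurred elsewhere in the genome. Bases counted outside these stretches were not searched. The counting options that the methods list do not include the one that counts reads with several matches. No window was found elsewhere for Hist1h1a, Hist1h1b, Hist1h1t, Hist2h2bb, Hist2h2be and Hist4h4. For Hist2h2bb, whose annotated reading frame has 2 parts, the windows came from its longest exon and not from the reading frame. Its value therefore does not show that the 493 bases counted for it are its own.

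In Trp53+/+ B cells, histone genes moved both ways after IR. Of 59 genes, 4 rose (6.78%) against 12.5% of all 13821 genes tested, and 12 fell (20.3%) against 12.2%, or 16 in either direction against 24.7%. A gene was called at an adjusted p under 0.05 and a log2 fold change beyond 0.58, by limma on log2(RPKM + 0.5) with Benjamini-Hochberg adjustment over all genes tested, and log2 fold changes below are on that scale with their standard error. The median log2 fold change was -0.11 over the histone genes and 0.01 over all genes. By class it was -0.30 for H2A and -0.27 for H2B, but 0.27 for H3, 0.34 for H4 and 0.04 for H1.

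The H2B gene Hist1h2bp rose most. It was at 6.22, 3.05, 5.73 and 4.74 RPKM in the mock samples and at 12.3, 9.46, 26.2 and 21.7 RPKM after IR. The groups did not overlap, and the log2 fold change was 1.65 ± 0.30 (SE, adjusted p = 0.000661, limma). The H3 gene Hist1h3h went from 7.69 to 10.9 RPKM in mock to 11.9 to 22.7 RPKM after IR (0.84 ± 0.17, adjusted p = 0.00161, limma). The H4 gene Hist1h4i went from 28.02 to 38.8 RPKM to 47.0 to 69.5 RPKM (0.68 ± 0.14, adjusted p = 0.0014, limma), and the H3 gene Hist1h3f rose by 0.58 ± 0.10. In none of these did a mock sample reach the lowest irradiated sample. Much of their reading frames is shared, since 94.7% of the windows of Hist1h3h, 79.03% of those of Hist1h2bp, 76.04% of those of Hist1h3f and 71.2% of those of Hist1h4i occurred elsewhere. The length counted for each of them was longer than its reading frame, and the rest was not searched.

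The fall was led by an H2A and H2B pair that share a promoter region, Hist1h2ah and Hist1h2bk. Hist1h2ah was at 9.55, 8.27, 9.14 and 4.58 RPKM in mock and at 2.09, 1.61, 4.66 and 4.00 RPKM after IR. The highest irradiated sample just passed the lowest mock sample. The log2 fold change was -1.27 ± 0.33 (adjusted p = 0.00595, limma). Hist1h2bk fell from 19.4 to 33.01 RPKM to 7.10 to 19.7 RPKM (-0.94 ± 0.25). Hist1h2ah rested on few reads, as few as 3 in a sample, and 96.4% of its windows and 96.05% of those of Hist1h2bk occurred elsewhere. The H2B gene of cluster 3, Hist3h2ba, fell from 10.5 to 17.7 RPKM to 5.22 to 8.52 RPKM with no overlap (-0.93 ± 0.17, adjusted p = 0.000677, limma). The other genes that fell were Hist1h2ab, Hist1h2ae, Hist1h2bh, Hist1h2bl, Hist1h3b, Hist1h3c, Hist1h3g, Hist1h4j and Hist2h2be, by 0.61 to 0.77 on the log2 scale.

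Receptor signal differed among these irradiated samples: 36.7%, 47.3%, 7.01% and 15.97% of receptor genes were above 0 in replicates 1 to 4. Hist1h2ah and Hist1h2bk were lowest in replicate 2, which had the highest share, and Hist1h2bp was highest in replicate 3, which had the lowest. Without the libraries over 10%, 6 genes rose and 2 fell, and leaving out IR replicate 2 alone gave 5 and 6, IR replicate 3 alone 2 and 12, and mock replicate 1 alone 7 and 7. Hist1h2bp kept 2.34 (adjusted p = 0.00166, limma) and Hist3h2ba kept -0.88 (adjusted p = 0.0344, limma), while Hist1h2ah was at -0.65 (adjusted p = 0.281, limma) and Hist1h2bk at -0.38 (adjusted p = 0.271, limma). That alternative leaves 1 irradiated Trp53+/+ sample, assumed to vary like the others. With replicates 3 and 4 alone, 4 rose and 3 fell.

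The summed RPKM of each class overlapped between mock and irradiated Trp53+/+ B cells, with H4 at 633 to 838 RPKM and 793 to 883 RPKM. The share of H4 in the histone total did not overlap. H4 made up 31.9% to 35.3% of the histone total in mock Trp53+/+ B cells and 37.99% to 40.2% after IR, without overlap, with 38.4% in IR replicate 3, the library under 10% receptor signal. The H4 share was higher after IR without overlap in the other groups too. It went from 30.6% to 33.5% in mock to 34.2% to 35.8% after IR in Trp53+/+ non-B cells. In Trp53-/- mice it went from 35.2% and 35.3% to 36.0% and 36.3% in B cells, and from 32.0% and 34.9% to 35.1% and 35.5% in non-B cells. The sum over all histone genes was 1794 to 2484 RPKM in mock and 2022 to 2299 RPKM after IR and overlapped. In the same samples the sum over 24 S phase genes was 414 to 539 RPKM in mock and 481 to 545 RPKM after IR, that over 20 G2 and M phase genes 125 to 272 RPKM and 102 to 129.6 RPKM, and that over 8 erythroid markers 57.9 to 115.5 RPKM and 46.1 to 53.9 RPKM. Their part in the histone values was not tested.

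**Figure D1:**
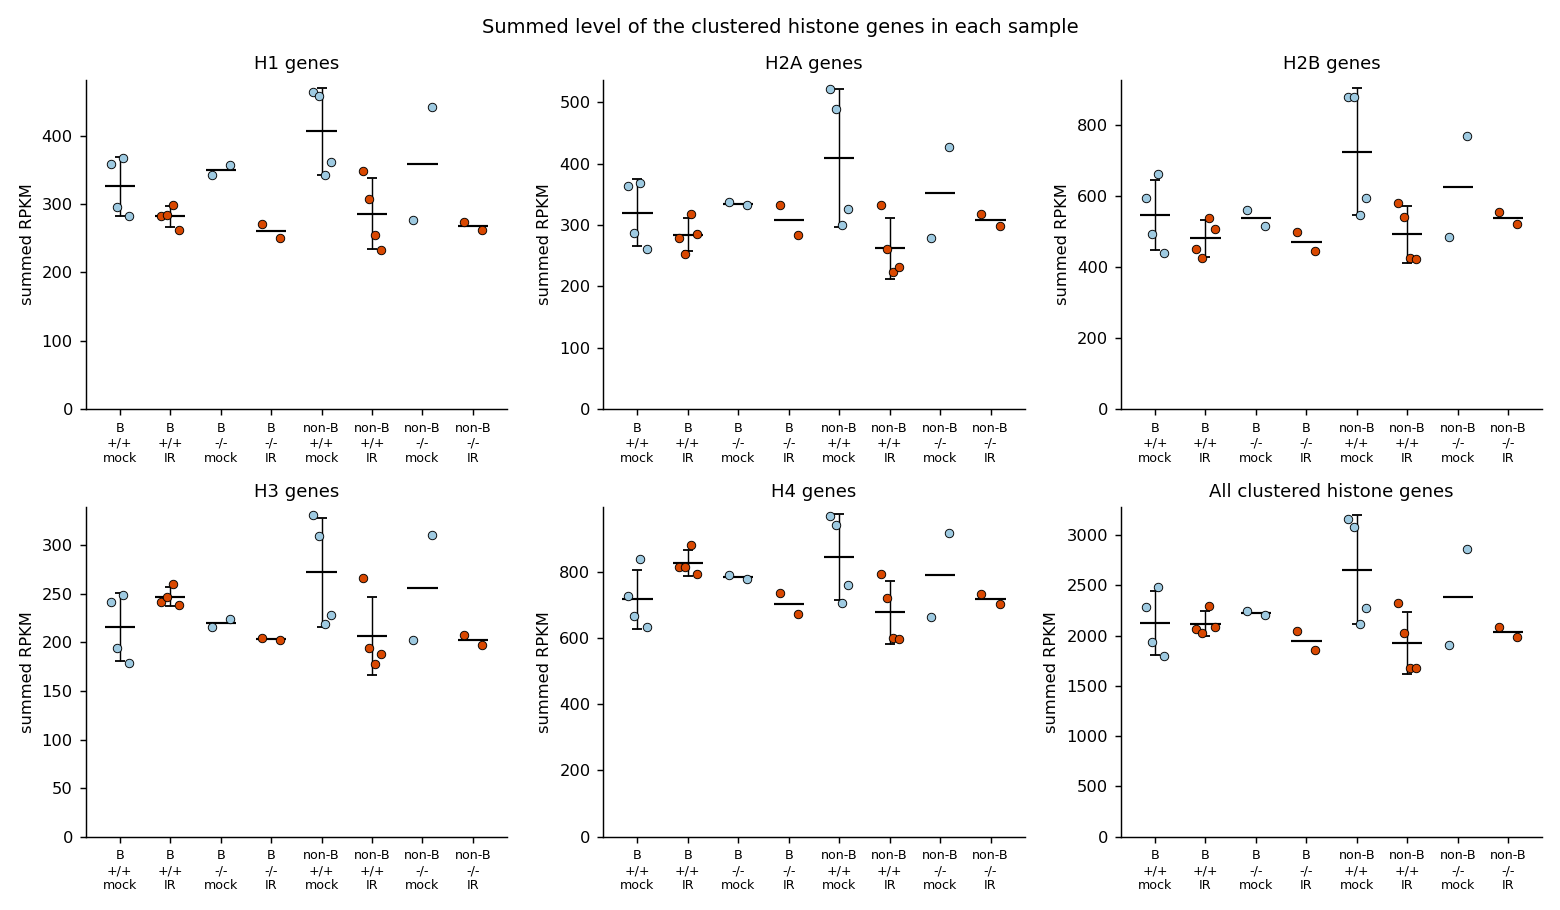
Summed RPKM of the clustered histone genes of each class, and of all 64, in each of the 24 samples (vertical axes start at 0; blue, mock; orange, IR; bars, group means with SD where n = 4). In non-B cells the mock samples of both genotypes spread widely, from 1903 to 3163 RPKM for all members. In Trp53+/+ B cells the H3 and H4 means were higher and the H1, H2A and H2B means lower after IR. Mock and irradiated samples of these cells overlapped in every class.

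In Trp53-/- B cells 9 of 59 histone genes had an unadjusted p under 0.05 (limma), against 6663 of all 13821 genes tested. None of the 59 was called as rising and 3 as falling (5.08%), against 13.1% and 11.2% of all genes tested (24.3% in either direction). The count rested on single libraries: it was 1 without mock replicate 2 or IR replicate 2, the latter over 10% receptor signal, and 5 without IR replicate 1. Hist3h2ba went from 16.5 and 14.4 RPKM to 7.86 and 6.75 RPKM (-1.04 ± 0.24, adjusted p = 0.00481, limma), and its response differed from that in Trp53+/+ B cells by 0.10 ± 0.30 (SE, adjusted p = 0.85, limma). The linker histone Hist1h1c fell from 85.2 and 94.8 RPKM to 61.1 and 57.7 RPKM (-0.59 ± 0.11, adjusted p = 0.000809, limma). Hist2h2aa1 fell from 10.1 and 12.7 RPKM to 7.18 and 4.73 RPKM (-0.90 ± 0.33, adjusted p = 0.0475, limma). All windows of its reading frame occur elsewhere, but it was counted over 2337 bases, and those outside the frame were not searched. Its annotation overlaps that of Hist2h3c1 on the same strand. Its call was lost in 12 of 25 alternatives (log2 fold change -0.62 without IR replicate 2), so its value is uncertain. The median over the histone genes was -0.19, and 49 of 59 log2 fold changes were below 0.

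The genotypes were compared by the difference of their responses, Trp53+/+ minus Trp53-/-. In B cells 7 of 59 genes responded more upwards in Trp53+/+ (11.9%) and none downwards, against 6.56% and 5.43% of all genes. The H2B, H3 and H4 genes among them were those that rose in Trp53+/+: Hist1h2bp (2.17 ± 0.53, adjusted p = 0.0139, limma), Hist1h3h (1.07 ± 0.30, adjusted p = 0.0291), Hist1h4i (1.01 ± 0.24, adjusted p = 0.0129) and Hist1h3f (0.69 ± 0.18), together with Hist4h4 (0.62 ± 0.20). Hist1h2bp was at 4.96 and 6.87 RPKM in mock Trp53-/- B cells and at 4.96 and 3.07 RPKM after IR, all below the lowest irradiated Trp53+/+ sample. The other 2 were linker histones, Hist1h1c (0.61 ± 0.13, adjusted p = 0.00703) and Hist1h1d (0.64 ± 0.18, adjusted p = 0.029). For Hist1h2ah the difference was -1.52 ± 0.56 and did not pass (adjusted p = 0.0804). These calls rest on 2 Trp53-/- samples per condition, and 2 genes were called without either mock Trp53-/- sample: both were among the 7 without replicate 1, but 1 was without replicate 2. Without IR replicate 2 of that genotype 1 upward and 1 downward difference passed, neither among the 7, and without mock Trp53+/+ replicate 4 there were 6 upwards and 4 downwards. Without the libraries over 10% receptor signal 5 passed, all upwards, with 4 of the 7 among them.

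**Figure D2:**
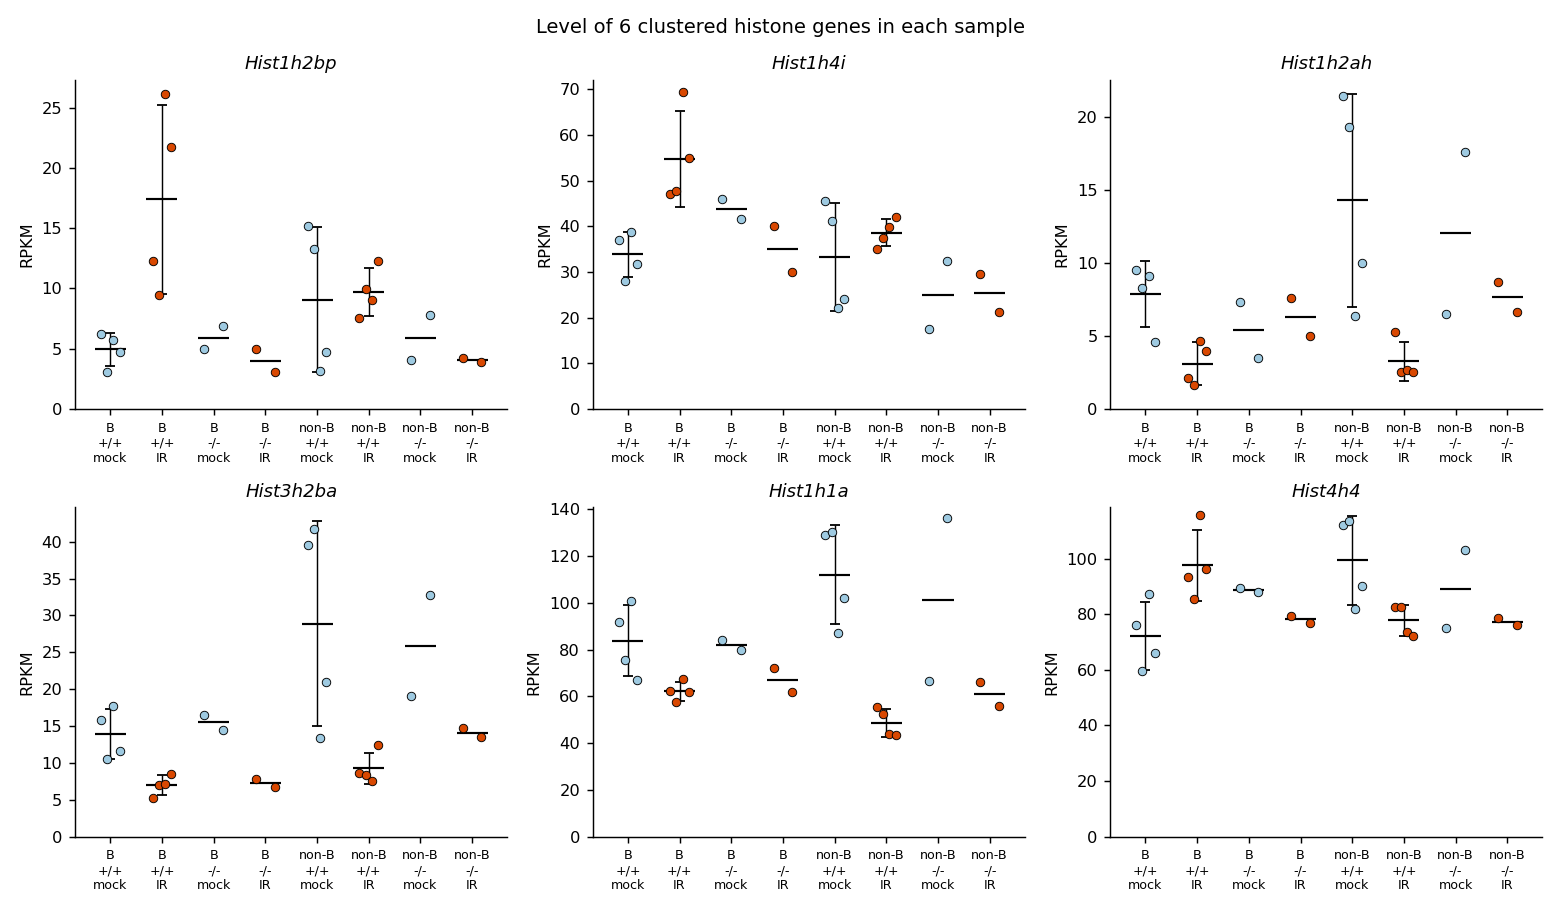
RPKM of Hist1h2bp, Hist1h4i, Hist1h2ah, Hist3h2ba, Hist1h1a and Hist4h4 in each sample (axes start at 0; blue, mock; orange, IR; bars, group means with SD where n = 4). Hist1h2bp after IR lay between 9.46 and 26.2 RPKM in Trp53+/+ B cells and at 3.07 and 4.96 RPKM in Trp53-/- B cells, whereas Hist3h2ba was lower after IR in B cells of both genotypes.

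In Trp53+/+ non-B cells the direction was one-sided. None of 59 histone genes rose and 16 fell (27.1%), against 5.74% and 4.11% of all 14018 genes tested (9.85% in either direction). The median log2 fold change was -0.44, against -0.03 over all genes, and 48 of 59 values were below 0. All classes took part: 2 of 6 H1, 5 of 13 H2A, 6 of 16 H2B, 1 of 11 H3 and 2 of 13 H4 genes fell. Same-numbered mock and IR samples of these cells deviated together (r = 0.156 to 0.323). Differently numbered ones ranged from r = -0.376 to 0.316, so the number is not shown to mark a pair. With the replicate number as a block 23 genes fell, the 16 among them.

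Hist1h2ah again fell most. It was at 21.5, 19.3, 6.35 and 9.98 RPKM in mock and at 5.30, 2.55, 2.66 and 2.51 RPKM after IR (-1.89 ± 0.40, adjusted p = 0.00954, limma). Every irradiated sample lay below every mock sample. Hist3h2ba was at 39.5, 41.7, 13.4 and 20.9 RPKM in mock and at 8.69, 8.40, 7.56 and 12.4 RPKM after IR (-1.47 ± 0.32, adjusted p = 0.0113, limma). The pseudogene Hist3h2bb-ps of the same cluster fell from 17.9 to 52.9 RPKM to 9.09 to 14.8 RPKM (-1.32 ± 0.37). These genes showed the same split among the mock samples, with replicates 1 and 2 high and replicates 3 and 4 low.

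Among the abundant genes with sequence of their own, the linker histone Hist1h1a was at 129, 130, 86.9 and 102 RPKM in mock and at 55.3, 52.4, 43.9 and 43.3 RPKM after IR (-1.18 ± 0.20, adjusted p = 0.00294, limma). The groups were far apart, with no irradiated sample above 55.3 RPKM. Hist2h2ab, an H2A gene of cluster 2, fell from 24.03 to 41.2 RPKM to 12.5 to 17.2 RPKM (-1.03 ± 0.17, adjusted p = 0.00258, limma). A gene model on the opposite strand overlaps it, and these libraries keep no strand, so their reads cannot be told apart.

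The size of the fall moved with the mock samples. In mock Trp53+/+ non-B replicates 1 to 4, the summed histone RPKM was 3163, 3076, 2117 and 2270. The summed RPKM of 24 S phase genes was 951, 894, 461 and 507 in the same samples, that of 20 G2 and M phase genes 698, 663, 190 and 218, and that of 8 erythroid markers 404, 382, 134 and 159. After IR the ranges were 1673 to 2320 for the histone genes, 320 to 370 for S phase, 114 to 249 for G2 and M phase and 29.6 to 72.03 for erythroid markers. Of the 8 erythroid markers, 6 fell in the test, where 4.11% of all genes did. Both kinds of marker moved with the histone genes, and their part in the fall was not tested. Replicates 1 and 2 alone gave 13 genes that fell and 1 that rose, and replicates 3 and 4 alone gave 9 and 1. Without mock replicate 1 or 2, 5 or 4 fell, and without IR replicate 2, 3 or 4, 10, 4 or 7 fell.

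Receptor signal also moved with irradiation in these cells, with 24.7%, 8.61%, 51.3% and 35.8% of receptor genes above 0 in IR replicates 1 to 4. Without the libraries over 10% the log2 fold change of Hist1h2ah was -2.13 (adjusted p = 0.155, limma) and that of Hist3h2ba -1.58 (adjusted p = 0.192, limma), with 1 irradiated sample left. In that setting 1 gene was called, none of the 16, and with the mean receptor RPKM as a covariate none was. IR replicate 2, the library with the lowest share, had Hist1h2ah at 2.55 RPKM and Hist1h1a at 52.4 RPKM, below every mock sample.

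**Figure D3:**
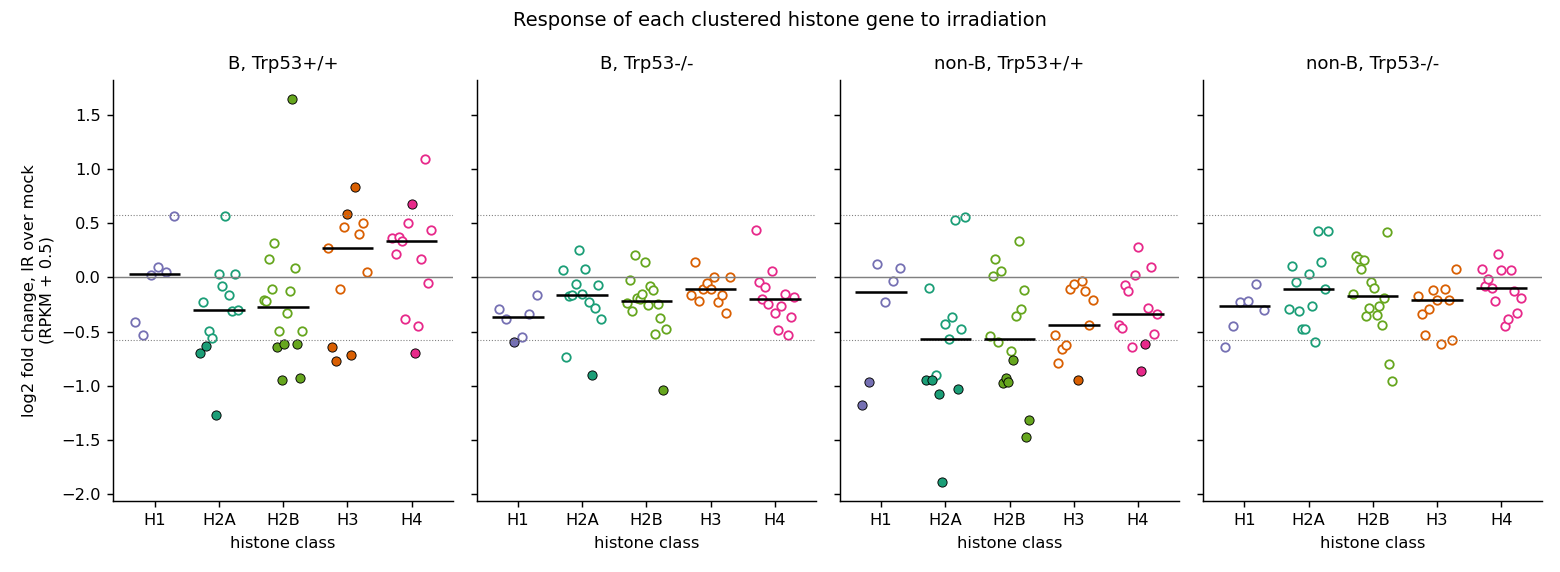
log2 fold change of IR over mock for each of the 59 tested histone genes, by class, in the 4 combinations of cell type and genotype (filled points pass the test; open points do not; black bars, class medians; dotted lines, 0.58 in each direction). In Trp53+/+ non-B cells 16 genes fell and none rose, in Trp53+/+ B cells 12 fell and 4 rose, and in Trp53-/- cells 3 and 0 fell.

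In Trp53-/- non-B cells no histone gene was called by limma, and 4 of 59 passed an unadjusted p under 0.05, against 2222 of all 14018 genes tested. The share of all genes that were called was low as well, at 0.193% up, 0.250% down and 0.442% in either direction. The 2 mock samples stood far apart: the summed histone RPKM was 1903 and 2865 in mock and 2085 and 1983 after IR, with erythroid marker sums of 62.6 and 291 in mock. Hist1h2ah was at 6.49 and 17.6 RPKM in mock and at 8.67 and 6.65 RPKM after IR. As a test of the difference between genotypes, 1 of 59 genes passed (1.69%, against 2.82% of all genes in that direction, 3.72% upwards and 6.55% in either): Hist2h2ab, at 20.8 and 29.1 RPKM in mock and 28.8 and 25.9 RPKM after IR in Trp53-/- cells, had a difference of -1.18 ± 0.30 (adjusted p = 0.0388, limma). With the replicate block its adjusted p was 0.0616, and leaving out any 1 of the 4 Trp53-/- samples ended the call, as did leaving out mock replicate 2 or IR replicate 1, 2 or 3 of Trp53+/+. The other genes that fell in Trp53+/+ were not shown to differ between genotypes, and for Hist1h2ah the difference was -1.41 ± 0.70 (adjusted p = 0.231). Without irradiation the genotypes differed in none of the 59 genes in either fraction by limma, with 7 genes of B cells and 2 of non-B cells at an unadjusted p under 0.05, where 0.0506% (0.0217% up, 0.0289% down) and 0.0428% (0.0143% up, 0.0285% down) of all genes were called.

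Between the fractions of mock Trp53+/+ spleens, 54 of 59 histone genes had a lower mean in B cells, and 5 passed the test (8.47%), all lower, against 17.2% of all 14598 genes in that direction, 7.38% upwards and 24.6% in either. These were Hist1h4n (-1.83 ± 0.48, B over non-B, adjusted p = 0.00547, limma), Hist3h2bb-ps (-1.09 ± 0.30), Hist3h2ba (-0.92 ± 0.29), Hist1h3g and Hist1h2bh. Hist1h4n was at 0.684 to 3.12 RPKM in B cells and 4.63 to 10.5 RPKM in non-B cells, and all windows of its sequence occur elsewhere in the genome. The count turned on the samples used: leaving out mock non-B replicate 1 or 2 left 2 genes, leaving out replicate 2 or 4 of B cells left 3, leaving out non-B replicate 3 gave 15, and there were 29 genes lower in B cells in replicates 1 and 2, against 1 lower and 2 higher in replicates 3 and 4.

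The response itself differed between the fractions in Trp53+/+ mice for 8 genes. In 7 of 59 it was higher in B cells (11.9%) and in 1 lower (1.69%), against 9.88% and 8.90% of all genes (18.8% in either direction), and 51 of 59 differences were above 0. Hist4h4, the lone H4 gene of chromosome 6, is an example with sequence of its own. In B cells it was at 76.0, 59.5, 87.3 and 66.1 RPKM in mock and 93.3, 85.4, 116 and 96.3 RPKM after IR, and in non-B cells at 112, 114, 81.7 and 90.1 RPKM and then 82.6, 82.6, 73.6 and 72.3 RPKM. The responses differed by 0.78 ± 0.18 (adjusted p = 0.00434, limma). The largest differences upwards were those of Hist2h3b (0.94 ± 0.29, adjusted p = 0.0244), Hist1h4a (0.81 ± 0.23, adjusted p = 0.0153) and Hist1h3a (0.80 ± 0.25, adjusted p = 0.0267), and the log2 fold changes of Hist1h1a, -0.41 in B cells against -1.18 in non-B cells, differed by 0.77 ± 0.20 (adjusted p = 0.00832). In the other direction stood Hist3h2a, the H2A gene of cluster 3, at 4.94 to 6.94 RPKM in mock and 3.41 to 7.04 RPKM in irradiated B cells, and at 4.89 to 6.45 RPKM and 7.99 to 9.05 RPKM in non-B cells (-0.85 ± 0.25, adjusted p = 0.0193). Its annotation overlaps Trim17 on the same strand. Leaving out mock B replicate 4 or mock non-B replicate 1 left 5 of the differences, leaving out mock non-B replicate 3 or 4 gave 14 or 12, and without the libraries over 10% receptor signal 1 was called.

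**Figure D4:**
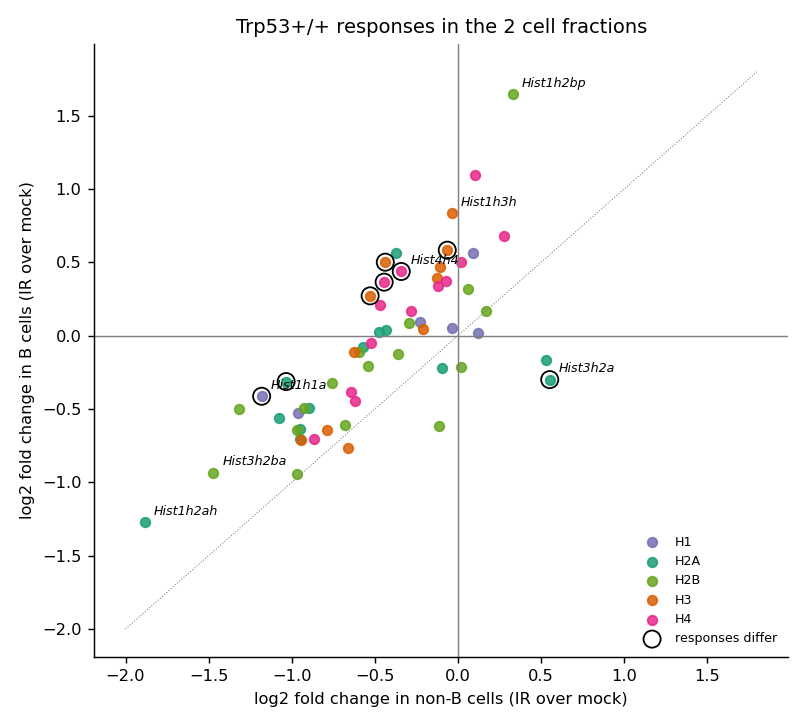
log2 fold change of IR over mock in Trp53+/+ non-B cells (horizontal axis) against B cells (vertical axis) for 59 histone genes, coloured by class, with circles around the 8 genes whose responses differed by limma and a dotted line of equal response. Of the 59 points, 51 lie above the line, and Hist1h2bp stands at the top with 1.65 in B cells.

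Linker histones are given by subtype. In Trp53+/+ mice Hist1h1a and Hist1h1b, with no window found elsewhere, had log2 fold changes of -0.41 and -0.53 in B cells and fell in non-B cells, while those of Hist1h1c, Hist1h1d and Hist1h1e lay between -0.23 and 0.12 in both fractions. Hist1h1b was at 72.4 to 106 RPKM in mock B cells and 52.96 to 67.4 RPKM after IR (-0.53 ± 0.12, short of the fold required), and at 100.8 to 153 RPKM and 45.4 to 98.1 RPKM in non-B cells (-0.96 ± 0.26, adjusted p = 0.0282, limma). Hist1h1c was at 74.2 to 86.8 RPKM in mock Trp53+/+ B cells and 70.9 to 87.9 RPKM after IR (0.02 ± 0.08), and at 80.4 to 87.6 RPKM and 76.7 to 102 RPKM in non-B cells (0.12 ± 0.09). Hist1h1e was within 44.05 to 56.4 RPKM in all 8 Trp53+/+ B cell samples. In Trp53-/- B cells the log2 fold changes of Hist1h1a, Hist1h1b, Hist1h1c, Hist1h1d and Hist1h1e were -0.29, -0.39, -0.59, -0.55 and -0.34, all below 0, and that of Hist1h1c alone passed.

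The length over which each gene had been counted differed widely. It was recovered for 59 genes as the shortest length that turned all values into whole reads, which held within 0.1 read for 99.6% of values. For 27 genes it equalled the reading frame with its stop codon, while 9 genes were counted over 1500 bases or more: Hist1h1c, Hist1h1d, Hist1h1e, Hist1h2ac, Hist1h2be, Hist1h3d, Hist2h2aa1, Hist2h2be and Hist3h2a. In Trp53+/+ non-B cells none of these 9 was called and their median log2 fold change was -0.03, whereas 16 of the other 50 fell and their median was -0.52. Hist3h2a and Hist2h2aa1 had the highest values of all 59, at 0.55 and 0.53, just under the fold required. In Trp53-/- B cells 2 of the 9 were called and their median was -0.38, against 1 of 50 and -0.16. The medians lay close together in Trp53+/+ B cells, at -0.11 for the 9, of which 1 fell, and -0.09 for the other 50, of which 4 rose and 11 fell. In Trp53-/- non-B cells none was called, and the medians were 0.11 and -0.21. The split at 1500 bases was drawn after the values were seen, and no test was made of it.

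**Figure D5:**
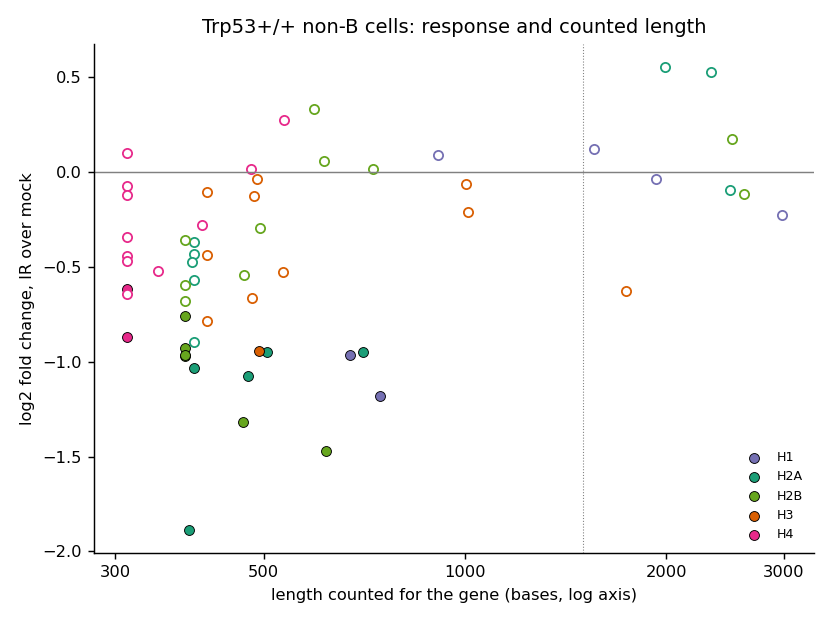
log2 fold change of IR over mock in Trp53+/+ non-B cells against the length counted for each gene (log axis, bases), coloured by class (filled points pass the test; dotted line, 1500 bases). The 16 genes that fell all lie to the left of the line, and the 9 genes to its right range from -0.63 to 0.55.

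There were 11 pairs of genes in divergent orientation less than 500 bases apart, each of an H2A and an H2B gene, and all but Hist1h2ba with Hist1h2aa and Hist1h2bq with Hist1h2ao were tested. In the pair Hist1h2ah and Hist1h2bk, 177 bases apart, the log2 fold changes in Trp53+/+ mice were -1.27 and -0.94 for B cells and -1.89 and -0.97 for non-B cells. In the pair Hist1h2an and Hist1h2bp, 242 bases apart, they were 0.57 and 1.65 for B cells and -0.37 and 0.33 for non-B cells. In the pair Hist1h2ae and Hist1h2bg, by contrast, Hist1h2ae fell by 0.63 in B cells while Hist1h2bg was at 0.31, and in cluster 3 Hist3h2bb-ps was at -1.32 and Hist3h2a at 0.55 in non-B cells.

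Of 20 factors of histone gene transcription, hairpin binding and 3′ end formation, none was called by limma in either fraction of irradiated Trp53+/+ mice. Of all genes, 24.7% were called in B and 9.85% in non-B cells. At an unadjusted p under 0.05 there were 9 factors in B and 11 in non-B cells, against 7919 of all 13821 and 4869 of all 14018 genes tested. In Trp53-/- B cells 5 rose, where 13.1% of all genes did: Coil, Cstf2, Lsm11, Ncbp1 and Ncbp2, by 0.58 to 1.11 on the log2 scale. Slbp was at 36.7 to 42.2 RPKM in mock and 29.1 to 35.5 RPKM in irradiated Trp53+/+ B cells (-0.33 ± 0.08), and at 33.4 to 53.6 RPKM and 28.7 to 32.7 RPKM in non-B cells (-0.49 ± 0.15), without overlap in either but short of the fold required. Npat, the coactivator of histone gene transcription, was at -0.16 ± 0.07 in Trp53+/+ B cells and 0.36 ± 0.10 in Trp53-/- B cells.

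Cell cycle genes are given beside the histone genes. Of 24 S phase genes, 16 fell in Trp53+/+ non-B cells, where 4.11% of all genes did, with a median of -0.93. In Trp53-/- B cells 10 rose and 1 fell (13.1% and 11.2% of all genes), with a median of 0.56, where the histone median was -0.19. Fen1, the flap endonuclease, rose there by 0.96 ± 0.16 (adjusted p = 0.000549, limma), and 10 of the 24 had a lower response in Trp53+/+ than in Trp53-/- B cells (5.43% of all genes). In Trp53+/+ B cells 2 S phase genes rose and 3 fell, where 12.5% of all genes rose and 12.2% fell, while 15 of 20 G2 and M phase genes fell. Of 17 histone chaperones tested, Chaf1a and Chaf1b, subunits of the chromatin assembly factor CAF-1, and Tonsl fell in Trp53+/+ non-B cells and none rose.

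Outside the clusters, replacement variants are made independently of replication from polyadenylated mRNA. Of 12 on the list 9 passed the filter. In each Trp53+/+ fraction 1 of the 9 rose, where 12.5% of all genes rose in B and 5.74% in non-B cells. H2afj, encoding an H2A variant, rose in Trp53+/+ B cells (1.38 ± 0.06, adjusted p = 2.67e-09, limma) and non-B cells (0.74 ± 0.06, adjusted p = 6.88e-06), and was at 0.20 ± 0.08 in Trp53-/- B cells, with a difference of 1.18 ± 0.10 (adjusted p = 7.23e-06). The 2 that fell in Trp53+/+ B cells, Cenpa and H2afv, also fell in Trp53-/- B cells, by 1.37 and 0.79. Of all genes, 12.2% fell in Trp53+/+ and 11.2% in Trp53-/- B cells. H2afz, H3f3a and H3f3b were not called in any of the 4 IR comparisons.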

How the data were processed

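Total RNA depleted of ribosomal RNA was sequenced without strand information. Per the study's methods and submitters' notes, the authors mapped the reads with TopHat (build mm9), removed all but 1 of duplicate reads, counted genes with featureCounts 1.4.5 and deposited RPKM, with reads on exons as library size. The notes name TopHat2 2.0.8; the counting options listed in the methods include none for multi-mapping reads, and read length is not given in the sources used here. Counts were not analysed here, so limma 3.58.1 was fitted to log2(RPKM + 0.5), with a variance trend, to 12 B, 12 non-B or 16 Trp53+/+ samples. Genes above 1 RPKM in at least 1 Trp53+/+ sample were tested, with Benjamini-Hochberg adjustment over all of them, and the step was tested on simulated data. The labels do not say whether samples are separate animals; the methods name 4 Trp53+/+ and 2 Trp53-/- mice, and p-values measure the spread between these samples. Same-numbered Trp53+/+ non-B mock and IR samples deviated together (r = 0.156 to 0.323), while differently numbered ones ranged from r = -0.376 to 0.316. Other groups share only a number. B and non-B fractions were split from the same spleens, but no label ties a number to a mouse, and same-numbered Trp53+/+ fractions did not all deviate together (r = -0.102 to 0.351). Fits across fractions were made without a block and, as an alternative, with one. Members and lists were chosen with earlier results of these data known.

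Genes were named by rule: the 3 most abundant members per class, the 3 called members with the largest change in each direction per comparison, all H1 genes, clusters 3 and 4, testis variants, Trp53, Slbp, Npat and the 4 most abundant genes of other lists; others were named after their values were seen. Alternatives changed the pseudocount, filter, scaling, block, receptor signal, ceiling, thresholds and samples. Depth and counted lengths came from GENCODE vM1 exon lengths and the steps between values; the depth limits low genes to counting precision, with a median of 7.5 reads for the lowest tested member.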

Additional observations from a re-analysis of the deposited data

Results flagged for a closer look

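In groups of 4 Trp53+/+ samples, 4 of 148 tests found a sample far from the other 3. Chance gives about 1 in 20 for a single test. These tests share samples and genes, so the count cannot be weighed against that share. Hist1h2bb was at 62.9 RPKM in 1 irradiated B cell sample against 55.2 to 55.6 RPKM in the others, and Hist1h3e at 69.9 RPKM against 57.4 to 59.0 RPKM. Hist1h4c was at 107.5 RPKM in 1 mock B cell sample against 87.2 to 90.6 RPKM. Hist1h2ah was at 5.30 RPKM in 1 irradiated non-B sample against 2.51 to 2.66 RPKM, still below every mock sample.

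The response to IR differed between genotypes in B cells (log2 scale, Trp53+/+ minus Trp53-/-, limma) for Hist1h2bp by 2.17, Hist1h3h by 1.07, Hist1h4i by 1.01, Hist1h3f by 0.69, Hist1h1d by 0.64, Hist4h4 by 0.62 and Hist1h1c by 0.61, and in non-B cells for Hist2h2ab by -1.18. Between Trp53+/+ B and non-B cells it differed for Hist2h3b by 0.94, Hist1h4a by 0.81, Hist1h3a by 0.80, Hist4h4 by 0.78, Hist1h1a by 0.77, Hist2h2ab by 0.72, Hist1h3f by 0.65 and Hist3h2a by -0.85. Hist4h4 and Hist1h3f stood in the lists for B cells and for the fractions, and Hist2h2ab in those for non-B cells and for the fractions.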

How the results depend on the processing

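Counts of called histone genes are given here as higher plus lower together. For IR in Trp53+/+ B cells (16), 8 were called without the libraries over 10% receptor signal, 7 with replicates 3 and 4 only and 32 with no fold threshold. In Trp53-/- B cells (3) the counts were 1 without those libraries, 5 with the duplicate ceiling inverted, and 6 with no fold threshold. For the genotype difference in B cells (7) they were 13 with replicates 1 and 2 only, 4 with replicates 3 and 4 only, 1 at an adjusted p under 0.01, and 12 with no fold threshold. In Trp53+/+ non-B cells (16) they were 0 with receptor signal as a covariate, 1 without the receptor libraries, 10 with replicates 3 and 4 only, and 3 at an adjusted p under 0.01. The single genotype difference in non-B cells gave 0 with no filter, with the replicate block, with the covariate, without the receptor libraries, with replicates 3 and 4 only and at an adjusted p under 0.01, and 5 with replicates 1 and 2 only. Between mock B and non-B cells (5) there were 11 with quantile normalization, 0 with the covariate, 3 without the receptor libraries, 29 with replicates 1 and 2 only, 3 with replicates 3 and 4 only, 8 with the ceiling inverted, 2 at an adjusted p under 0.01 and 11 with no fold threshold. For the cell type difference (8) there were 1, 17, 2, 3 and 13 without the receptor libraries, with replicates 1 and 2 only, with replicates 3 and 4 only, at an adjusted p under 0.01 and with no fold threshold. The cause was not tested, except that leaving out libraries leaves fewer samples and that a changed threshold changes what counts as called.

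With 1 sample left out in turn, the counts ranged from 11 to 20 in Trp53+/+ B cells, 1 to 5 in Trp53-/- B cells, 2 to 10 for their difference, 4 to 23 in Trp53+/+ non-B cells, 0 to 1 for the non-B genotype difference, 2 to 15 between mock fractions and 5 to 14 for the cell type difference, and stayed at 0 in Trp53-/- non-B cells and between mock genotypes. With the replicate block, 17 were called in Trp53+/+ B cells, 3 in Trp53-/- B cells, 9 for their difference, 23 in Trp53+/+ non-B cells, 6 between mock fractions and 9 for the cell type difference. With the block set within mock and within IR, added after seeing the data, the last 2 counts were again 6 and 9, with the 5 and the 8 among them. The Trp53-/- non-B numbers deviated in opposite directions (r = -0.255), and crossing them, as with the inverted ceiling an alternative chosen after seeing the data, gave 0 calls in those cells and 1 genotype difference. Direction was checked for 23 named gene and comparison pairs, picked as the largest called changes of the main fit. None of these reversed under any alternative run, and other comparisons of the named genes were not checked. Of the 23 pairs, 3 passed under every alternative: Hist1h2bp in Trp53+/+ B cells and Hist3h2ba in B cells of both genotypes. The IR to mock ratios of summed RPKM moved by less than 1 SD under each alternative for all members and for the Trp53+/+ classes. With the ceiling inverted, those of Trp53-/- B cells went from 0.746 to 0.686 for H1 and from 0.925 to 0.898 for H3, both by more than 1 SD.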
